A study of Mus musculus with 2 samples.

Results

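The LSD1-CoREST complex was followed through the 9 genes of its subunits, Kdm1a, Rcor1, Rcor2, Rcor3, Hdac1, Hdac2, Hmg20b, Phf21a and Zmym2. The cells were sorted from cultures of mesoderm derived from mouse embryonic stem cells, grown with and without an LSD1 inhibitor. The members were all probesets of the deposited value table that the platform annotation names with 1 of these symbols alone, or with an older synonym, a rule that uses no measured value. All 9 genes were found, out of 15087 measured genes. They had 189 probesets, those of Kdm1a under its older symbol Aof2. Each probeset reports the hybridisation of a short stretch of a transcript.

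Cells of the inhibitor array had received compound B at 300 nM, an LSD1 inhibitor given only by this code name, and cells of the DMSO array had received the solvent. Both cultures started from Bry-GFP ES cells, a mouse embryonic stem cell line in which the mesoderm gene Brachyury carries a GFP reporter. Embryoid bodies were grown for 3 days, FLK1+ mesoderm cells were isolated and treated, and the CD41 compartment was sorted on day 2 of the culture. The labels name the sorted cells hemogenic endothelial cells, the endothelium from which blood cells arise. There was 1 array per condition, so that no test between conditions was possible, no value has an error between samples, and precision is limited to that of 2 arrays. Where an SD is given it is taken over the probesets of 1 gene and is no replicate error.

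LSD1 removes methyl groups from a lysine of histone H3 that marks active promoters and enhancers, and it does so on nucleosomes when it is held by a CoREST scaffold protein. The same scaffold binds the histone deacetylases HDAC1 and HDAC2, so that the complex removes acetyl and methyl groups at the same sites. DNA-binding repressors such as GFI1 and GFI1B, which are needed for the emergence of blood cells from endothelium, bring the complex to their target genes. The title of the series concerns this recruitment. The inhibitor acts on the LSD1 protein, and the levels of the subunit mRNAs neither check nor measure its action.

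None of the 9 subunit genes was 2-fold higher or lower in the inhibitor array. A value in log2 units is a level when it describes 1 array and a difference when it is inhibitor minus DMSO, so that a difference of 1 is 2-fold. A gene's level was the median over its bright probesets, those whose higher value reached 3.17, the median of the table, and its difference was the median of the probeset differences. The size rule required a difference of at least 1 in either direction with at least 75% of the bright probesets on that side, in genes with at least 4 bright probesets. Over all measured genes 1.72% passed it upward and 0.563% downward, so a count of 0 among 9 genes is close to the background share. At 1.5-fold, too, none of the 9 passed, where 5.85% of all genes passed upward and 2.66% downward. The 9 differences ran from -0.22 for Rcor3 to 0.47 for Rcor2, with a median of 0.09 beside 0.06 for all measured genes. All 9 lay within 0.5 of 0, as did 85.7% of all genes, and 6 were above 0 and 3 below it, where 59.0% of all genes were above 0. In RNA of a sorted bulk sample, fewer cells of a type and less RNA per cell cannot be told apart.

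**Figure D1:**
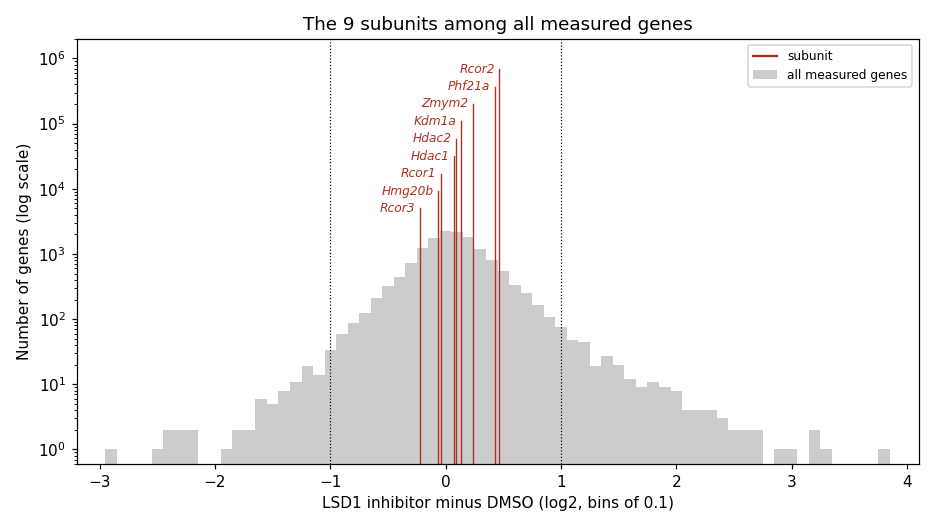
Number of measured genes (log scale) by their difference between the LSD1 inhibitor array and the DMSO array in log2, in bins of 0.1 (grey bars), with the 9 subunit genes as red lines whose heights only separate the labels. The subunits sit between -0.22 and 0.47, inside the dotted lines at -1 and 1 that mark the size rule.

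Of the 189 probesets, 180 were bright and 9 were dim. The dim ones were 3 of Rcor3, 3 of Zmym2, 2 of Phf21a and 1 of Hmg20b. Of the 180, 120 were higher in the inhibitor array (66.7%, where 54.7% of the bright probesets of all genes were). At least 1 in log2 higher were 13 (7.22%, against 8.69% of all bright probesets), and 2 were at least 1 lower (1.11%, against 6.04%). Of these 15, 6 lay below 3.17 in one of the arrays and 11 lay below the table's 75th percentile, 4.84, in one of them. Above 4.84 in both arrays were 144 probesets, of which 4 were at least 1 higher and none was at least 1 lower, where 3.05% and 1.12% of such probesets of all genes were. These 4 were 2 probesets of Phf21a and 1 each of Rcor2 and Zmym2.

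**Figure D2:**
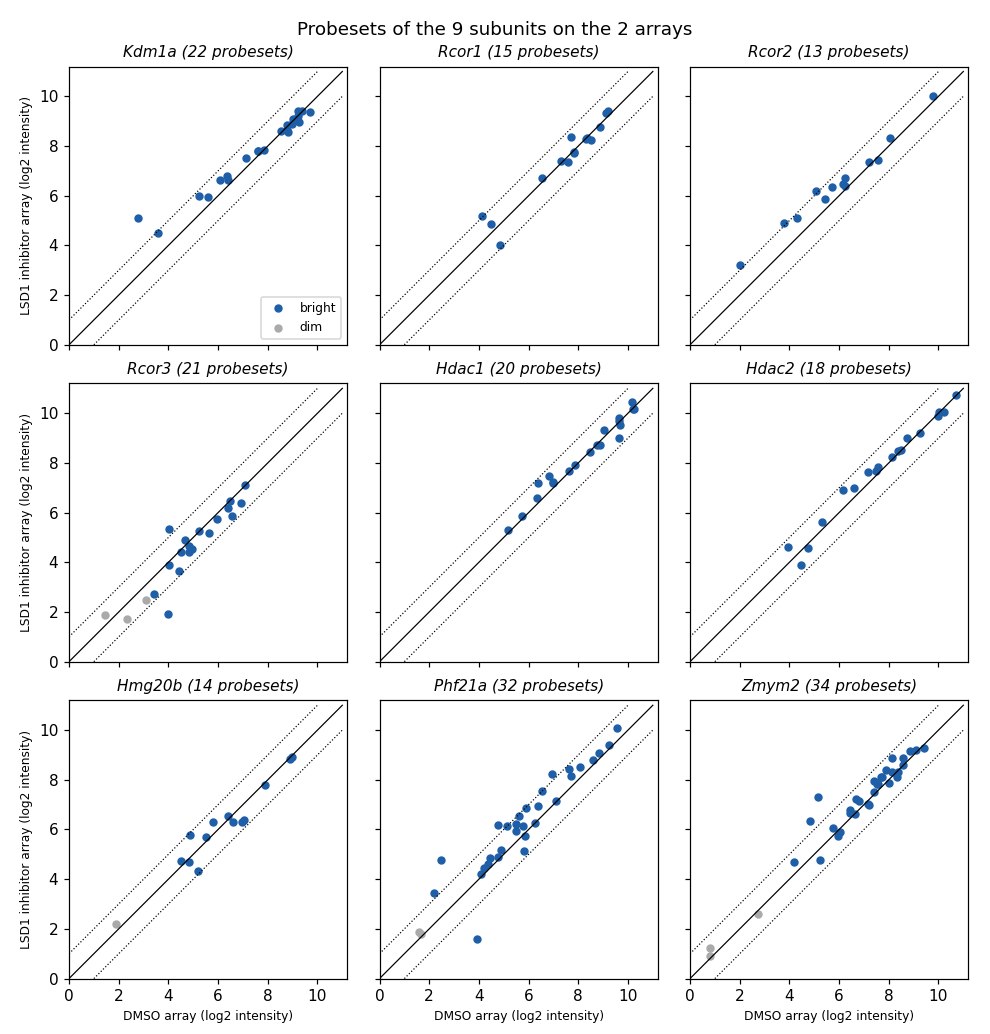
Every probeset of the 9 subunit genes, with its log2 intensity in the LSD1 inhibitor array (vertical axis) against that in the DMSO array (horizontal axis), blue for bright and grey for dim probesets. The solid line is equality and the dotted lines are 1 in log2 above and below it. The probesets of Hdac1 and Hdac2 stay between the dotted lines, and of the 15 probesets at or beyond them in other genes, 11 lie below 4.84 in at least one array.

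Kdm1a encodes LSD1, the demethylase and the protein that compound B inhibits. Its level was 8.20 in the inhibitor array and 8.19 in the DMSO array. The difference was 0.14 (1.10-fold, SD 0.56), and 17 of 22 probesets were higher and 5 lower. The middle of its probesets lay close to 0, with quartiles of 0.00 and 0.40. The widest gap was a probeset at 5.10 in the inhibitor array and 2.79 in the DMSO array, a dim value. Over the 11 brighter probesets of Kdm1a the difference was 0.01 (SD 0.17), and over the 11 dimmer ones it was 0.41 (SD 0.63). The difference of Kdm1a therefore came from its dimmer probesets.

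The 3 CoREST scaffold genes did not share a direction. Rcor1 encodes CoREST itself, the scaffold that couples LSD1 to the deacetylases. Its level was 7.78 in the inhibitor array and 7.81 in the DMSO array, a difference of -0.04 (SD 0.42), with 7 probesets higher and 8 lower. As a mean over probesets the difference was 0.07, and with odd-ranked probesets alone it was also above 0, so Rcor1 has no settled sign. Its extremes were a probeset at 5.19 in the inhibitor array and 4.14 in the DMSO array and one at 4.03 in the inhibitor array and 4.86 in the DMSO array.

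Rcor2 encodes the paralog known from embryonic stem cells and neural progenitors, and it had the highest difference of the 9. Its level was 6.40 in the inhibitor array and 6.15 in the DMSO array. The difference was 0.47 (1.38-fold, SD 0.43), and 12 of 13 probesets were higher, the quartiles being 0.26 and 0.81. At least 75% of the bright probesets were higher in Rcor2, Phf21a and Kdm1a, 3 of the 9, as in 23.0% of all measured genes. Rcor2 stood at percentile 89.4 of all gene differences. The size depended on which probesets were read. Over its 6 brighter probesets the difference was 0.22 (SD 0.21) and over its 6 dimmer ones 0.95 (SD 0.30). The probeset with the widest gap was at 3.23 in the inhibitor array and 1.99 in the DMSO array. The single lower probeset was among its brighter ones, at 7.42 in the inhibitor array and 7.58 in the DMSO array.

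Rcor3 encodes the third CoREST protein, described in blood cells as a competitor of CoREST that lessens the action of LSD1. It was the member furthest down, with a difference of -0.22 (0.86-fold, SD 0.64), 13 of 18 bright probesets lower and 5 higher. The median level went the other way, 5.04 in the inhibitor array and 4.91 in the DMSO array, because a difference is the median of paired probesets and not the gap between medians. The quartiles of the differences were -0.53 and -0.02. The widest gaps were a probeset at 1.91 in the inhibitor array and 3.98 in the DMSO array, and one at 5.32 in the inhibitor array and 4.04 in the DMSO array. Its 9 brighter probesets differed by -0.22 (SD 0.30) and its 9 dimmer ones by -0.40 (SD 0.87).

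**Figure D3:**
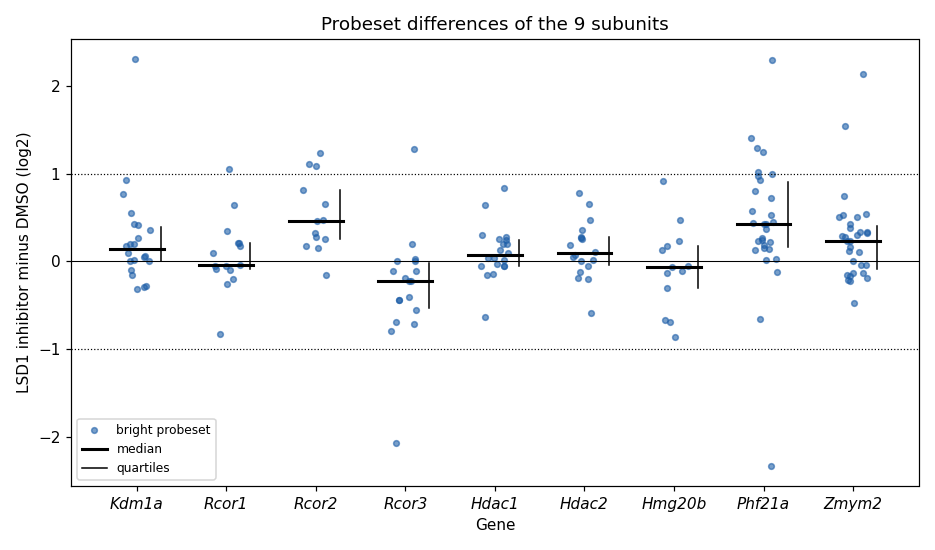
Difference between the LSD1 inhibitor array and the DMSO array in log2 for each bright probeset (points) of the 9 subunit genes, with the gene's median (thick line) and its quartiles (thin line). The lower quartile is above 0 for Kdm1a, Rcor2 and Phf21a, the upper quartile is below 0 for Rcor3, and the other genes straddle 0.

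The stretches of 250 bases before the transcription start are printed for the scaffold pair Rcor2 and Rcor1 and for Phf21a and Kdm1a, the 2 members with the highest differences beside 2 near 0. The sequences are those of RefSeq on the mouse build GRCm38.p6, whose table held 8 of the 9 members, with 12 start sites. Capitals mark AATC, the core that GFI1 proteins bind, on either strand (GATT on the printed one).
Rcor2, chr19:7267144-7267393, plus strand: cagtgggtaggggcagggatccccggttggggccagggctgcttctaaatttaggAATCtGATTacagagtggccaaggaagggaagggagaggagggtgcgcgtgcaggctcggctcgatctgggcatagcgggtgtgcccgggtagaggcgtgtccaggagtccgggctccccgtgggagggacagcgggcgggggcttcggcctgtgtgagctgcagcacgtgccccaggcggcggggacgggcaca
Phf21a, chr2:92185233-92185482, plus strand: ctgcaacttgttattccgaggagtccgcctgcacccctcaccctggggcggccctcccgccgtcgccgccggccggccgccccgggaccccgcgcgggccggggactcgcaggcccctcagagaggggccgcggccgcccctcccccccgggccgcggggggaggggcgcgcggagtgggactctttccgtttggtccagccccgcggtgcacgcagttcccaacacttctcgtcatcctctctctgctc
Rcor1, chr12:111039117-111039366, plus strand: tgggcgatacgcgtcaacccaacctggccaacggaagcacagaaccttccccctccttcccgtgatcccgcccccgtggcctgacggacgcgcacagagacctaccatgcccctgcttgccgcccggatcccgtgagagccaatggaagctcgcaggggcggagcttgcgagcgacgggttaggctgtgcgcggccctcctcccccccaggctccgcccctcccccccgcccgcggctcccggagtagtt
Kdm1a, chr4:136602724-136602973, minus strand: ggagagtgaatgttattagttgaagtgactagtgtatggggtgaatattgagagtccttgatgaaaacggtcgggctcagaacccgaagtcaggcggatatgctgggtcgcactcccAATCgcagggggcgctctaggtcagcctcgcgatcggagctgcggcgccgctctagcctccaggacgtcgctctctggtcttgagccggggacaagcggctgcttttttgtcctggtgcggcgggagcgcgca

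The core was found in 2 places in the Rcor2 window, 1 base apart and on opposite strands, in 1 place in that of Kdm1a, and in none in those of Rcor1 and Phf21a. A second start site of Phf21a had 1 match. Counted over all 12 windows of the members, 6 held the core, 3 of them overlapping windows of Hmg20b, and 69.0% of the 32851 windows of that length in the table did, so the letters alone set no member apart. The windows shown were rich in G and C, with 67.6% for Rcor2, 75.6% for Phf21a, 70.4% for Rcor1 and 59.2% for Kdm1a, where the median window had 52.4%. They held 17, 30, 25 and 21 CG pairs in the same order, and the median window held 6. The second start of Phf21a differed, with 30.8% G and C and no CG pair. The arrays do not measure binding, and a match is a description of the letters.

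The deacetylase genes were the least variable members. Hdac1 encodes a class I deacetylase that also serves the NuRD and SIN3 complexes. Its level was 8.57 in the inhibitor array and 8.62 in the DMSO array, whereas the median of its paired differences was 0.07 (1.05-fold, SD 0.30), with 13 of 20 probesets higher. No probeset reached 1 in either direction, the range being -0.63 to 0.84. The sign turned when a level-dependent trend was removed and with the brighter probesets alone (-0.04), so Hdac1 has no settled direction.

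Hdac2, its close paralog in the same complexes, was at 8.02 in the inhibitor array and 7.85 in the DMSO array. The difference was 0.09 (1.07-fold, SD 0.33), with 13 of 18 probesets higher and a range of -0.59 to 0.78. Its 9 brighter probesets differed by 0.02 (SD 0.13), the narrowest spread of any brighter set among the 9 genes. The probeset SDs of the 9 genes ran from 0.30 for Hdac1 to 0.77 for Phf21a, beside 0.60 in the median measured gene.

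Among the remaining subunits, Phf21a was higher on most of its probesets, Zmym2 leaned the same way and Hmg20b did not. Phf21a encodes BHC80, whose PHD finger binds the tail of histone H3 once LSD1 has left it unmethylated. It was at 6.20 in the inhibitor array and 5.79 in the DMSO array. The difference was 0.43 (1.34-fold, SD 0.77), with 27 of 30 bright probesets higher, 5 of them by at least 1, and quartiles of 0.17 and 0.90. In contrast to Rcor2, the difference of Phf21a did not shrink where the signal was strong: it was 0.45 (SD 0.39) over the 15 brighter probesets and 0.26 (SD 1.03) over the 15 dimmer ones. Above 4.84 in both arrays, 2 of its probesets were at least 1 higher, at 8.23 in the inhibitor array and 6.94 in the DMSO array and at 7.56 in the inhibitor array and 6.55 in the DMSO array. Its outermost probesets lay on opposite sides. One was at 4.77 in the inhibitor array and 2.47 in the DMSO array, and the other at 1.58 in the inhibitor array and 3.91 in the DMSO array.

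Zmym2 encodes a MYM-type zinc finger protein of the complex that binds SUMO-modified partners. Its level was 7.82 in the inhibitor array and 7.41 in the DMSO array, and the difference was 0.23 (1.18-fold, SD 0.51), with 21 of 31 bright probesets higher and 10 lower. It had the same 0.23 over its 15 brighter and its 15 dimmer probesets. A single probeset stood apart at 7.30 in the inhibitor array and 5.16 in the DMSO array (2.14), which was the widest gap among the 144 member probesets above 4.84 in both arrays.

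Hmg20b encodes BRAF35, an HMG-box protein that bends DNA and helps the complex to bind nucleosomes. It was at 6.30 in the inhibitor array and 6.41 in the DMSO array. The difference was -0.06 (0.96-fold, SD 0.49), with 8 of 13 bright probesets lower and none past 1. The lowest was -0.87 and the highest 0.91, so the probesets of Hmg20b fell on both sides about equally far.

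Each gene's bright probesets were split by their mean signal, leaving out the middle one where their number was odd. In 6 of the 9 genes the dimmer probesets had the higher difference, and in Rcor3, Phf21a and, by less than 0.01, Zmym2 they had the lower one. Over the 10350 genes with at least 8 bright probesets, the dimmer ones had the higher difference in 56.6%, with medians of 0.10 over the dimmer and 0.04 over the brighter ones. Over the brighter probesets the largest differences of the 9 were those of Phf21a (0.45), Zmym2 (0.23), Rcor2 (0.22) and Rcor3 (-0.22), and the other 5 lay within 0.1 of 0.

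**Figure D4:**
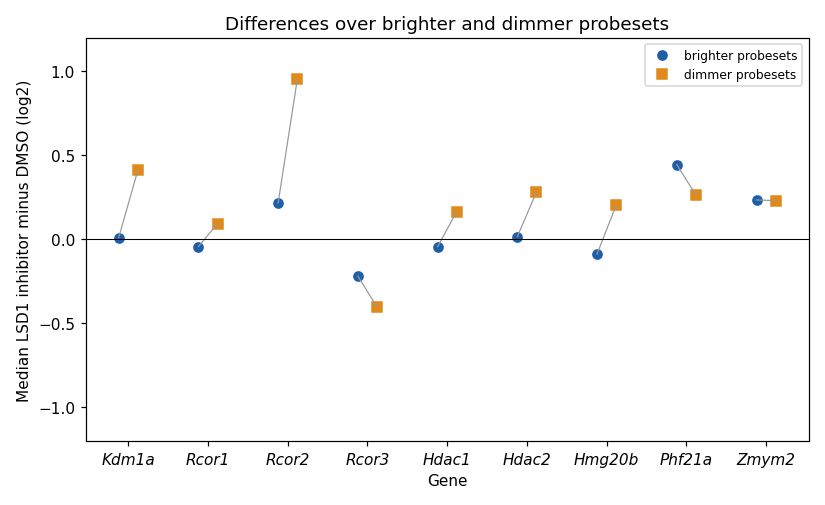
Median difference between the LSD1 inhibitor array and the DMSO array in log2 over the brighter (circles) and the dimmer (squares) bright probesets of each subunit gene, split at the middle of their mean signal. Kdm1a is at 0.01 over its brighter and 0.41 over its dimmer probesets, Rcor2 at 0.22 and 0.95, and Phf21a at 0.45 and 0.26.

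The other genes of the pathway were set beside the members. Of 61 genes listed, 59 were measured, with a median difference of 0.02. Of these, 3 passed the size rule upward and none downward, where 1.72% of all measured genes passed upward and 0.563% downward. None of the 3 encodes a listed subunit of NuRD, SIN3, NCoR or MiDAC. Of the 11 recruiting factors measured, Gfi1 and Gfi1b were the 2 past the rule. Gfi1 was at 7.30 in the inhibitor array and 4.87 in the DMSO array (difference 2.43, SD 1.09, 16 of 16 probesets higher). Gfi1b was at 9.93 in the inhibitor array and 8.41 in the DMSO array (1.56, SD 0.40, 7 of 7 higher). The list median was 0.16, and it turned to -0.17 with even-ranked probesets alone.

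The nearest relatives and partners of the subunits leaned downward, with none of 7 past the rule and a median of -0.23, beside 0.06 for all genes. Of the 7, 5 were below 0 and 2 above it, where 59.0% of all measured genes were above 0. The list median was -0.05 with odd-ranked probesets alone. Gse1, a CoREST-associated protein gene, was at 7.88 in the inhibitor array and 8.29 in the DMSO array (-0.31, SD 0.19), with 17 of 19 probesets lower. Ctbp2, a gene of the CtBP corepressors, differed by 0.34 (SD 0.59). Kdm1b, which encodes LSD2, the other demethylase of this family, was at 4.43 in the inhibitor array and 4.68 in the DMSO array (-0.23, SD 0.73).

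The lists of other deacetylase-containing corepressor complexes held no gene past the rule, which is close to the background share of 1.72% upward and 0.563% downward. NuRD, SIN3 and MiDAC contain HDAC1 or HDAC2, and NCoR contains HDAC3. In NuRD, the remodelling complex, none of 13 measured genes passed, with a median of 0.04 that turned below 0 with the median gene set to 0. Its widest differences were those of the helicase genes Chd3 (0.60, SD 0.82) and Chd5 (0.28, SD 0.82). In SIN3 none of 13 passed either, with a median of 0.02 that turned below 0 in 3 alternatives of scaling or trend, and the widest were Sap30 (0.68, SD 0.55, 8 of 8 probesets higher) and Sin3b (0.40, SD 0.54). In the list of NCoR and MiDAC genes none of 7 passed, with a median of -0.07. Its widest were Tbl1xr1 (-0.36, SD 0.56) and Ncor1 (-0.29, SD 0.49), and Ncor1 was lower on 58 of 68 probesets.

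Of the 8 other deacetylase genes, Hdac7 passed the rule upward and the median was 0.03, which turned below 0 with the trend removed and with the median gene set to 0. Hdac7, a class IIa deacetylase known for its part in vessel integrity, was at 7.05 in the inhibitor array and 5.79 in the DMSO array (1.02, 2.02-fold, SD 0.72), with 28 of 30 probesets higher. It lay just over the threshold and fell below it in 4 of 14 alternatives, the lowest being 0.81. The next widest in that list was Hdac8, a class I deacetylase outside these complexes, at -0.17 (SD 0.61).

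**Figure D5:**
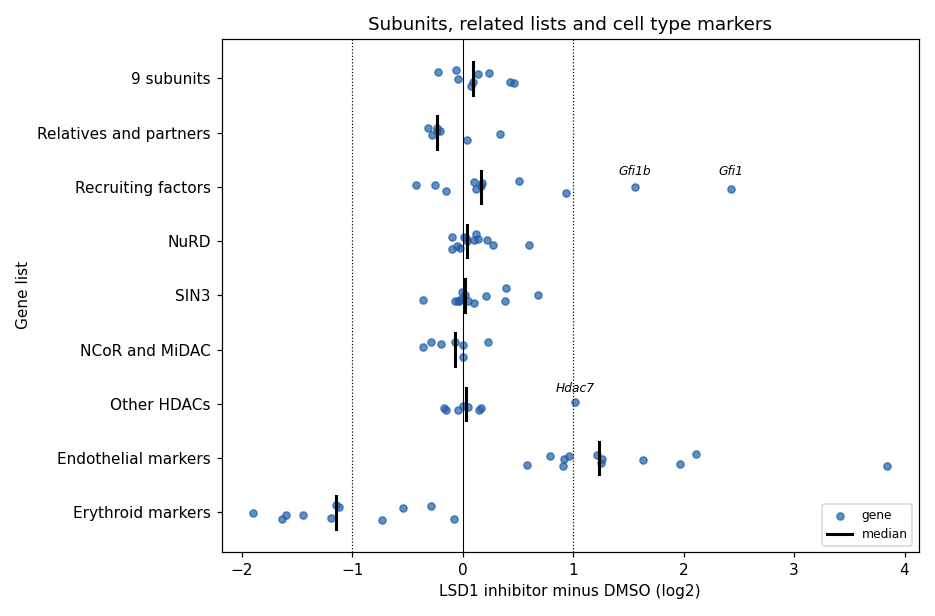
Difference between the LSD1 inhibitor array and the DMSO array in log2 for the genes (points) of each list, with the list's median (black bar) and dotted lines at -1 and 1. The 9 subunits and the genes of NuRD, SIN3 and NCoR with MiDAC stay between the lines, Gfi1, Gfi1b and Hdac7 lie above 1, and the endothelial and erythroid markers lie on opposite sides of 0.

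The arrays also differed in cell type markers. Over all measured genes 1.72% passed the rule upward and 0.563% downward, and 59.0% had a difference above 0. Of 12 endothelial markers, 7 passed the rule upward and none downward (median 1.23), with Sox7 at 3.84 and Cdh5 at 2.11. The summed level of that list was 11.4 in the inhibitor array and 9.80 in the DMSO array. A summed level is the log2 of the gene levels added together as intensities, so it is set mostly by the brightest genes of a list. Of 11 measured erythroid markers, 7 passed downward and none upward (median -1.15), with Hbb-y at -1.89 and Epor at -1.64, and the summed level was 11.9 in the inhibitor array and 13.5 in the DMSO array. Of the 7 measured megakaryocyte markers, 6 were below 0 and 2 passed the rule downward, Pf4 (-2.29) and P2rx1 (-1.66). The summed level was 8.30 in the inhibitor array and 8.87 in the DMSO array. All 9 measured mesenchyme markers were below 0, and 2 passed the rule downward, Dcn (-1.40) and Postn (-1.32). The summed level was 10.8 in the inhibitor array and 11.4 in the DMSO array. The highest single level in that list was 10.5 in the inhibitor array and 11.1 in the DMSO array. Of the 10 pan-haematopoietic markers 1 was higher, Cd53 (1.43), followed by Lmo2 at -0.78, with summed levels of 10.5 in the inhibitor array and 10.7 in the DMSO array. Levels of the 12 endothelial markers ran from 4.23 to 9.84 in the inhibitor array and from 3.85 to 7.89 in the DMSO array. Cdh5 was the highest of them in both. Levels of the 10 pan-haematopoietic markers ran from 4.40 to 8.60 in the inhibitor array and from 2.78 to 9.05 in the DMSO array. Runx1 was at 8.60 in the inhibitor array and 8.44 in the DMSO array. These levels alone do not settle the labelled cell type. Itga2b, which encodes CD41, the protein used for the sort, differed by -0.12. The part of these marker shifts in the differences of Rcor2, Phf21a, Gfi1, Gfi1b and Hdac7 was not tested.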

How the data were processed

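Total RNA of the 2 cultures was column-purified, amplified, turned into biotin-labelled single-stranded cDNA and hybridised to Affymetrix arrays, per the labels' protocols. The authors deposited 1 value per probeset and array, read here as log2 intensity from its range of 0.157 to 13.5. How they were summarised and normalized, and on which genome build, is not given in the sources used here. At equal rank the 2 arrays are within 0.085 of each other. The table ends at 1048576 lines, a spreadsheet's row limit, so later probesets were not analysed here.

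The platform annotation names 270105 probesets with 1 symbol, and symbols were brought up to date through unique RefSeq synonyms (4358 updated, 70 kept). Of the listed genes, 4 are not reported here. Gp9, Ppbp and Lum had too few bright probesets. Values were used as deposited, with pandas 2.3.3, and the summary was tested on simulated data. The planted differences were all larger than the size rule, so recovery of smaller ones, such as those of the members, was not tested. They were planted only in genes with at least 8 bright probesets, so recovery in genes with fewer was not tested. The simulated noise was the same at all levels. In the measured genes with at least 8 bright probesets, the median SD was 0.70 over the dimmer and 0.36 over the brighter probesets. The lowess span was 0.2 (statsmodels 0.14.6). The member rule uses no measured value, but members, lists and rules were chosen with earlier results of these data known. The rule for named genes was all members, pathway genes past the size rule, and the 2 widest of each list, with markers past the rule given by count. Kdm1b, Snai1, Runx1 and Itga2b were added after their values were seen.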

Additional observations from a re-analysis of the deposited data

How the results depend on the processing

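The 9 subunits were recomputed under 14 alternatives in scaling, filters, summary and probesets used, and none passed the size rule in any of them, nor at 1.5-fold or with no direction rule. The signs of Kdm1a, Rcor2, Rcor3, Hdac2, Hmg20b, Phf21a and Zmym2 held in all 14, of which 4 left every member's value as it was and 10 moved at least 1 member. Rcor1 (mean over probesets, odd-ranked probesets) and Hdac1 (trend removed, brighter probesets) each turned in 2. The ranges were -0.11 to 0.07 for Rcor1, -0.04 to 0.16 for Hdac1, 0.01 to 0.26 for Kdm1a, 0.26 to 0.53 for Rcor2 (the lowest with the brighter probesets, here with the middle one kept), 0.35 to 0.45 for Phf21a, 0.16 to 0.28 for Zmym2, -0.32 to -0.19 for Rcor3, 0.02 to 0.13 for Hdac2, -0.12 to -0.04 for Hmg20b, and 0.01 to 0.13 for the members' median. The 3 pathway genes past 2-fold upward became 6 at 1.5-fold (Snai1, Chd3 and Sap30 joined), which a lower threshold brings by construction. At 1.5-fold, 5.85% of all measured genes passed upward. The 3 became 1 with even-ranked probesets alone, which left too few of Gfi1b and put Hdac7 below the threshold. They became 2 with quantile normalization, with the trend removed and with at least 8 bright probesets required. Hdac7 was at 0.97 after quantile normalization, 0.92 with the trend removed, 0.81 with even-ranked probesets and 0.96 with the median gene set to 0. Gfi1 stayed between 2.33 and 2.69, and Gfi1b between 1.48 and 1.74 in the 12 alternatives that measured it. The list medians stayed below 0 for the relatives and partners (-0.29 to -0.05) and for NCoR with MiDAC, and those of NuRD (-0.02 to 0.10), SIN3 (-0.05 to 0.09), the other deacetylases (-0.06 to 0.23) and the recruiting factors (-0.17 to 0.60) turned in at least 1 alternative; the cause was not tested. With 1 array per group no replicate could be left out and no paired fit was possible.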
